A study of Mus musculus with 30 samples.

Results

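The regions examined here are the accessible windows next to 9 genes that carry out the work of a fat cell, namely Adipoq, Lep, Adipor2, Lpl, Cd36, Fabp4, Plin1, Cidec and Lipe, in mouse cells treated with drugs against actin. A window is a stretch of the genome in which the authors found an ATAC-seq peak. It was assigned to a gene when the nearest start site of a protein-coding transcript (GENCODE vM21 on GRCm38, the build called mm10 in the labels) belonged to that gene and lay within 50 kb. By this rule 132 of 305931 windows of the 24 h table and 125 of 369846 windows of the 4 h table belonged to the 9 genes. A window that contains a start site is called a promoter window, of which there were 13 at 24 h and 11 at 4 h. All others are called distal. Where a gene has a pair of promoter windows, they are named a and b in their order along the chromosome. At 24 h Lpl had 30 windows, Lep 28, Adipor2 15, Cd36 15, Adipoq 13, Lipe 9, Fabp4 8, Plin1 7 and Cidec 7. Of the windows in the 2 tables, 103 of the 132 at 24 h overlapped a 4 h window by at least 1 bp.

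The libraries came from 3 groups of marrow-derived mesenchymal stem cells (MSCs) at 24 h, which were left without treatment (control), or received CK666 or cytochalasin D (CytoD), and from control and CK666-treated MSCs and NIH 3T3 cells at 4 h, with 3 libraries per group. CK666 inhibits the Arp2/3 complex, which starts branches on actin filaments, and CytoD caps the growing ends of filaments, after which actin enters the nucleus. The labels give strain C57BL/6J and male sex for all samples, also for NIH 3T3, an established line of mouse embryonic fibroblasts in which the strain label was not checked. The study describes its MSCs as a primary line that it made from the marrow of several mice, and gives no animal for any library. The p-values here therefore measure only the spread between libraries of the same line, which may be technical, and not that between animals.

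The 9 genes cover the tasks of a mature adipocyte. Lipoprotein lipase (Lpl) frees fatty acids from circulating triglyceride, CD36 takes them up, and FABP4 carries them inside the cell. Perilipin 1 (Plin1) coats the lipid droplet and guards it against lipases, CIDEC enlarges droplets, and hormone-sensitive lipase (Lipe) breaks the stored lipid down, while adiponectin (Adipoq) and leptin (Lep) are hormones secreted by fat and Adipor2 is a receptor for adiponectin. Many of these genes are known targets of PPARG and of C/EBP proteins, the transcription factors that drive adipogenesis. ATAC-seq measures how often a transposase cuts in a window, so it reports on open chromatin and not on expression.

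The sequences on which the results turn are shown first, so that the windows named further on can be read. The first 3 are the 250 bases upstream of the RefSeq start (GRCm38.p6) of the genes whose promoter window was called in at least 1 comparison of treated with control MSCs, namely Adipoq (chr16:23146286-23146535, plus strand), Plin1 (chr7:79732777-79733026, minus strand) and Cd36 (chr5:17835897-17836146, minus strand). The other 4 are the central 300 bases, on the plus strand, of distal windows that changed with a treatment or differed between cell types. These are Lpl at -13.9 kb (chr8:68866442-68866741), Lep at +22.7 kb (chr6:29088002-29088301), Lep at +24.1 kb (chr6:29089384-29089683) and Adipor2 at -14.4 kb (chr6:119431906-119432205), where the distance is that of the window's centre from the nearest start site of the gene. Capitals mark matches, on either strand, to the motifs searched.
Adipoq promoter: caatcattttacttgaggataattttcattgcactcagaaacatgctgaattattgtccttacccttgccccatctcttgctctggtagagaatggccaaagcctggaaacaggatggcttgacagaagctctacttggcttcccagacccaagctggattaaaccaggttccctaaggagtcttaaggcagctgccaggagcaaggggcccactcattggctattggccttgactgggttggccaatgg
Plin1 promoter: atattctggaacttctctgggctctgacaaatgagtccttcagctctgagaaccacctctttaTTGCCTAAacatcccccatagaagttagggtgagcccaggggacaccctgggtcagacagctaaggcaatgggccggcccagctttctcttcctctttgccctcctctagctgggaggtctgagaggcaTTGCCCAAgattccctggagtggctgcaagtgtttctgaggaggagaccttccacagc
Cd36 promoter: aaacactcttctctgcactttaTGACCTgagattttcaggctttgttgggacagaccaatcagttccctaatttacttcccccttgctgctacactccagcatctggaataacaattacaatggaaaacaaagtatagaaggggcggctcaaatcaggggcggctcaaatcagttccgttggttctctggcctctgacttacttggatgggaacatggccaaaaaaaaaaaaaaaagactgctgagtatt
Lpl -13.9 kb window: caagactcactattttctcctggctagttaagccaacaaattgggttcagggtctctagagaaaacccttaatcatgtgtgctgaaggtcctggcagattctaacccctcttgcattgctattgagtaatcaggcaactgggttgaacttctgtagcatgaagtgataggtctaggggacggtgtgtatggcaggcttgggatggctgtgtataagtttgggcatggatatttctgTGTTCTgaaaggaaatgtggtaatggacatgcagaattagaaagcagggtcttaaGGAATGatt
Lep +22.7 kb window: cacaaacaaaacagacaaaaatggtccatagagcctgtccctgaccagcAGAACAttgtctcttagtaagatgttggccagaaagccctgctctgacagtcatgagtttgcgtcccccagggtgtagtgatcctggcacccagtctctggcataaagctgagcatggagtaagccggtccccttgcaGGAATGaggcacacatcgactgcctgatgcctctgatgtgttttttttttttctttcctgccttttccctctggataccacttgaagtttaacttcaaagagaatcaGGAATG
Lep +24.1 kb window: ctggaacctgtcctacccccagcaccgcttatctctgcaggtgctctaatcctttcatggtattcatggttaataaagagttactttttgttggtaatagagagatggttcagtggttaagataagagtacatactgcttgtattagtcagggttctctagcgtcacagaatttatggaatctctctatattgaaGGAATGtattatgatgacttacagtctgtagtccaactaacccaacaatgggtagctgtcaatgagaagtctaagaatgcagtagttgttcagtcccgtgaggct
Adipor2 -14.4 kb window: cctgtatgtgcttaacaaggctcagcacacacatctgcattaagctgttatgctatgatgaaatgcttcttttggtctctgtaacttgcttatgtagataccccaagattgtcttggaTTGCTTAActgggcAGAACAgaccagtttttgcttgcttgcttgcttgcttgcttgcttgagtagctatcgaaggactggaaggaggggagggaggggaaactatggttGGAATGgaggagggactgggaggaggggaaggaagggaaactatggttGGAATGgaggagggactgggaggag

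The motifs searched were a DR1 site of PPARG and RXR (a pair of AGGTCA cores 1 base apart, with at most 1 mismatch) and the core AGGTCA alone, which every exact DR1 contains. The others were those of C/EBP (TTGCNNAA), AP-1 (TGANTCA), TEAD (CATTCC), the AHR core (GCGTG) and the core of the glucocorticoid receptor site (TGTTCT). The Plin1 promoter held 2 C/EBP matches, a motif found in 9.56% of 32851 RefSeq promoters of the same length. The Cd36 promoter held 1 AGGTCA, found in 14% of these promoters, and the Adipoq promoter held none of the motifs. The Lpl window held 1 TEAD and 1 glucocorticoid match, the Lep window at +22.7 kb held 2 TEAD and 1 glucocorticoid match, and the Lep window at +24.1 kb held 1 TEAD match. Of all 24 h windows, 19.9% had a TEAD and 24.6% a glucocorticoid match in their central bases. In the Adipor2 window there were 1 C/EBP match, 2 TEAD matches and 1 glucocorticoid match, against shares of 13.4%, 21.3% and 25% of all 4 h windows. A match of these letters is a description of the window and shows no binding.

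The counts summed to between 14071301 and 22352180 per library at 24 h and between 14496058 and 34979833 at 4 h, where the NIH 3T3 libraries with CK666 were the shallowest. Rank correlations between replicates were 0.872 to 0.916 at 24 h and, within a group, at least 0.834 at 4 h. As a check of the labelled cell type, 8 of 12 MSC and fibroblast marker genes had a promoter window at 24 h, at a summed level of 144.1 to 154.7 normalised counts per kb in controls, 130.9 to 139.0 with CK666 and 119.6 to 126.8 with CytoD. Thy1, Eng, Ly6a and Lepr, of the same list, had none. No promoter window of the list was called with either drug. The markers of haematopoietic cells and macrophages had a promoter window in 4 of 8 genes at 24 h, at 32.31 to 41.47 counts per kb in controls, 29.04 to 36.78 with CK666 and 34.87 to 53.79 with CytoD, and Ptprc, Spi1, Itgam and Laptm5 had none. Among them the window of Adgre1, a macrophage surface protein, was called higher with CytoD (25.07 counts per kb in controls, 79.52 with CytoD). Endothelial markers had a promoter window in 3 of 6 genes, at 37.38 to 41.06, 34.26 to 37.81 and 32.23 to 41.82 counts per kb in the same order. At 4 h the MSC and fibroblast markers, with a promoter window in 10 of 12 genes, were at 218 to 244.6 counts per kb in MSC controls and 221.1 to 241.1 with CK666. In NIH 3T3 cells they were at 183.1 to 208.7 and 160.5 to 194.3. The haematopoietic and macrophage markers, with a promoter window in 3 of 8 genes at 4 h, were at 103.3 to 147.3 counts per kb in MSC controls and 90.72 to 107.6 with CK666. They were at 129.9 to 132.8 and 138.8 to 166.3 in NIH 3T3 cells, where the window of Cd68 was called higher with CK666 (129.5 against 257.1). In MSC controls at 4 h their median window was at 145.1 counts per kb, above the 128.3 of the MSC and fibroblast list. No window of these lists was at 0. Lpl, Cd36 and Fabp4 are also used by macrophages and endothelial cells, and the part of such cells in the results was not tested. Since the cells were measured in bulk, a change in the share of cells that are open at a site and a change in how open each cell is cannot be told apart.

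At 24 h more windows of the 9 genes gained than lost accessibility with CK666. Of the 131 windows tested (1 Lpl window at -23.0 kb fell under the filter on low counts), 5 were called higher and 0 lower, where a call needs an adjusted p under 0.01 and a fold change beyond 2. Over the whole table, 1.88% of windows were called higher and 1.06% lower. With so few windows called, the difference from these shares is not read as a result about the 9 genes. The genes were also chosen with earlier results of these data known. The 5 windows belonged to Lpl (2 windows), Lep, Cd36 and Plin1. The median log2 fold change of the 131 windows was 0.25, against 0.02 over all windows, and 91 of the 131 were above 0. With the fold limit dropped and an adjusted p under 0.05, 14 windows were higher and 3 lower, against 4.9% and 4.6% of all windows. In edgeR 33 of the 131 had an unadjusted p under 0.05, and so had 20.7% of all windows.

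With CytoD 6 of the same 131 windows were called higher and 2 lower, where 0.98% of all windows were called higher and 1.4% lower. The gains lay at Lpl (3 windows), Adipoq, Plin1 and Lipe, and the losses at Fabp4 and Lep. The median log2 fold change was 0.20 (all windows 0.04), with 82 windows above 0. Both drugs are compared with the same 3 control libraries, so their fold changes are given side by side and the difference between them was tested as a contrast of CK666 with CytoD. Scaling by total counts, in place of TMM, moved the share of gains among all windows called with CytoD from 41.2% to 56.4%, and CytoD calls at the 9 genes to 9 gains and 2 losses.

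**Figure D1:**
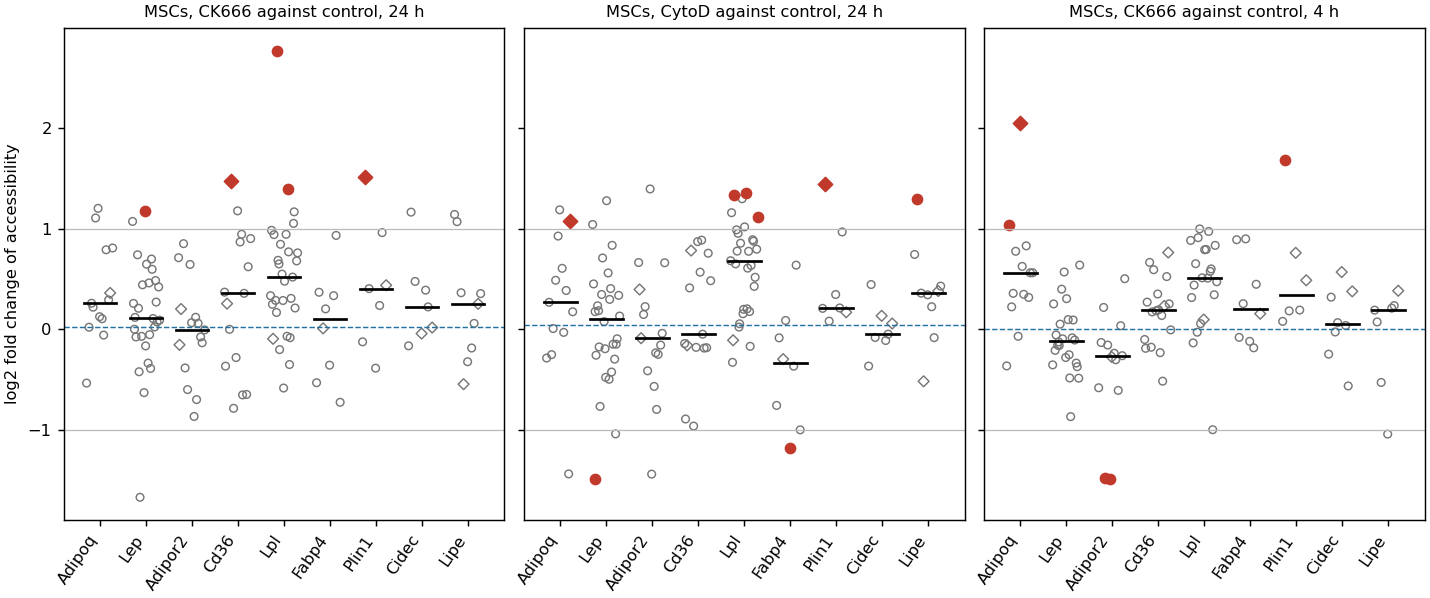
Log2 fold change of accessibility (vertical axis) of every tested window of the 9 genes (horizontal axis) for CK666 at 24 h, CytoD at 24 h and CK666 at 4 h, each against control MSCs, where diamonds are promoter windows, circles are distal windows, filled red symbols are called, black bars are the median of a gene, the dashed line is the median of all windows and grey lines mark a 2-fold change. The Lpl window at 2.78 stands highest with CK666 at 24 h, and the Adipoq promoter at 2.05 stands highest at 4 h.

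The promoters of Plin1 and Cd36 gained accessibility with CK666 at 24 h, and those of Plin1 and Adipoq gained it with CytoD. In all, 2 of 13 promoter windows were called with CK666 (0.773% of all promoter windows were called in either direction) and 2 of 13 with CytoD (0.444%).

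The Plin1 promoter window b (chr7:79732557-79733125), which contains the start sites of 4 Plin1 transcripts and both C/EBP matches shown in the Plin1 sequence, held 10.3, 10.9 and 20.3 normalised counts in control replicates 1 to 3. It held 43.5, 34.4 and 43.7 counts with CK666, and 30.2, 52.8 and 33.4 with CytoD. Every treated library stood above every control. On the log2 scale the change was 1.51 ± 0.34 (SE) with CK666 (adjusted p = 0.000768, the quasi-likelihood test of edgeR, adjusted by Benjamini-Hochberg) and 1.45 ± 0.35 with CytoD (adjusted p = 0.002), and the drugs did not differ beyond their error (0.07 ± 0.30). The call with CK666 was lost without control replicate 2, at 1.32 and an adjusted p of 0.0189. That with CytoD was lost without control replicate 1, control replicate 2 or CytoD replicate 2, at 1.15 to 1.27 and adjusted p of 0.0152 to 0.0503. The Plin1 promoter window a (chr7:79729097-79730243), was at 54.8 ± 11 (SD, n = 3) in controls, 75.8 ± 19 with CK666 and 62.4 ± 9.9 with CytoD, and was not called.

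Cd36 has start sites in 2 promoter windows. Window a (chr5:17835634-17836259) held 15.4, 16.8 and 13.2 normalised counts in the controls, 49.0, 24.1 and 54.3 with CK666, and 23.9, 19.2 and 34.3 with CytoD. All CK666 libraries were above all controls, although CK666 replicate 2 stood well below the other CK666 libraries. The log2 fold change with CK666 was 1.47 ± 0.35 (adjusted p = 0.00152, edgeR's quasi-likelihood test, Benjamini-Hochberg) and the call was lost without control replicate 3, CK666 replicate 1 or CK666 replicate 3, at 1.23 to 1.35 and adjusted p of 0.0189 to 0.0401. With CytoD it was 0.78 ± 0.37 (adjusted p = 0.185). Promoter window b of Cd36 (chr5:17849567-17850097) was at 37.4 ± 2.5, 44.9 ± 2.8 and 33.6 ± 2.3 (SD, n = 3) in control, CK666 and CytoD libraries, and was called with neither drug.

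The Adipoq promoter window (chr16:23146052-23146653) held 23.1, 42.9 and 32.7 normalised counts in controls, 51.8, 30.9 and 47.6 with CK666, and 64.1, 81.6 and 67.7 with CytoD. The CytoD libraries were above all controls, while the CK666 libraries overlapped the controls. This was a log2 fold change of 1.08 ± 0.26 with CytoD (adjusted p = 0.00209, edgeR's quasi-likelihood test, Benjamini-Hochberg) and 0.36 ± 0.27 with CK666 (adjusted p = 0.483). CK666 was lower than CytoD by an amount that missed the limits of a call (log2 difference -0.71 ± 0.25, adjusted p = 0.0476). Without control replicate 1, control replicate 3 or CytoD replicate 2 the CytoD call was lost, at 0.88 to 1.03 and adjusted p of 0.0172 to 0.0277.

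The promoters that were most open in untreated MSCs did not pass the test with either drug. Per kb of window, the promoter of Fabp4 was at 313 normalised counts, that of Lpl at 265, window a of Adipor2 at 220, window b of Cidec at 205 and window a of Lipe at 142. The median promoter window of the table was at 146. The called promoters of Plin1, Cd36 and Adipoq were at 24.3, 24.2 and 54.6. The Lpl promoter held 434, 490 and 559 counts in controls, 479, 499 and 414 with CK666 and 450, 465 and 464 with CytoD, which overlap. The log2 fold changes of Fabp4 were 0.01 ± 0.14 with CK666 and -0.30 ± 0.15 with CytoD, and those of the open Adipor2 promoter were 0.20 ± 0.11 and -0.09 ± 0.11. At the Lipe promoter they were 0.25 ± 0.18 and 0.38 ± 0.18, and at the Cidec promoter -0.04 ± 0.17 and 0.13 ± 0.17. The other promoter windows of Adipor2 (b), Cidec (a) and Lipe (b), at 19.4, 54.7 and 26.7 counts per kb in controls, were not called either. No window contained a start site of Lep in either table. The nearest, in its intron at +0.9 kb, held 29.5, 26.1 and 23.8 counts in controls, 32.4, 30.1 and 20.4 with CK666 and 23.9, 28.8 and 21.7 with CytoD.

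**Figure D2:**
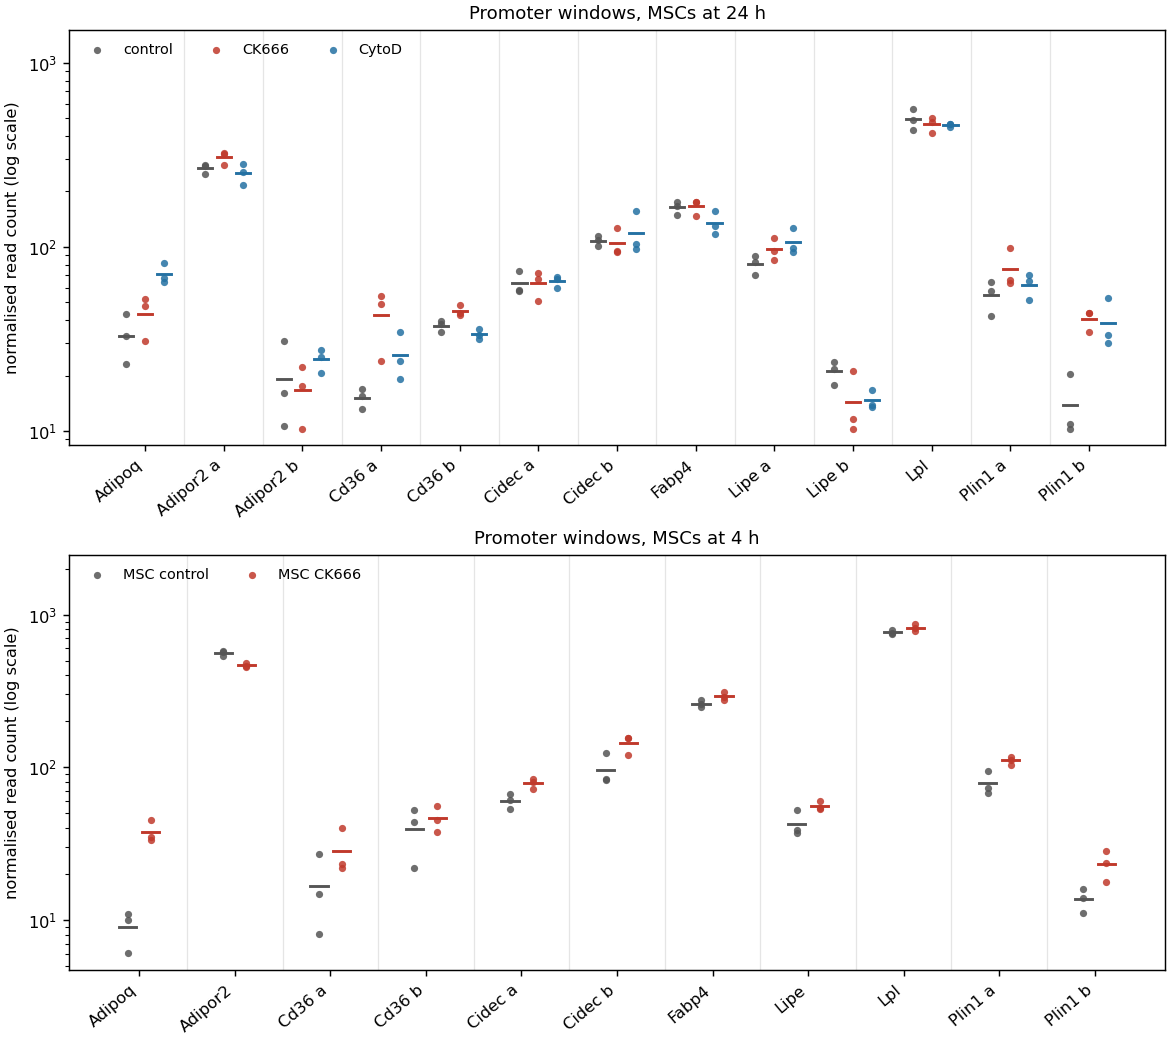
Normalised read counts (log axis) of each promoter window of the 9 genes in each library of MSCs at 24 h (upper panel) and 4 h (lower panel), with a bar at the mean of 3 libraries and letters a and b in the order along the chromosome. Plin1 b and Cd36 a are among the windows called at 24 h, Lpl, Adipor2 a and Fabp4 are the most open, and Adipoq stands apart from its controls with CytoD at 24 h and with CK666 at 4 h.

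Among the hormone genes, Lep had the clearest change with CK666 at 24 h. Its window at +22.7 kb (chr6:29087498-29088804, intergenic) held 140, 168 and 205 normalised counts in controls and 373, 408 and 388 with CK666, while CytoD libraries held 145, 161 and 148. The CK666 libraries stood far above all others, and the CytoD libraries lay among the controls. The log2 fold change was 1.17 ± 0.12 with CK666 (adjusted p = 6.39e-13, edgeR's quasi-likelihood test, Benjamini-Hochberg) and -0.19 ± 0.13 with CytoD (adjusted p = 0.402), and CK666 exceeded CytoD by 1.37 ± 0.12 (adjusted p = 4.06e-15). This was the most accessible distal window of Lep, and the call with CK666 held when any 1 library was left out.

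The neighbouring Lep window at +24.1 kb (chr6:29089231-29089835), the next one downstream, was lower with CytoD and not higher with CK666. It held 56.4, 65.7 and 59.1 counts in controls, 69.4, 49.0 and 64.1 with CK666 and 17.6, 34.8 and 13.5 with CytoD. The window fell with CytoD (log2 fold change -1.49 ± 0.29, adjusted p = 7.67e-05, edgeR's quasi-likelihood test, Benjamini-Hochberg) and was at 0.00 ± 0.25 with CK666. The drugs differed by 1.49 ± 0.29 (adjusted p = 5.3e-05).

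At Adipoq a distal window was higher with CK666, which the promoter was not. The window at +13.3 kb (chr16:23159657-23160210, intergenic), the most accessible distal window of the gene, held 122, 157 and 167 counts in controls, 253, 263 and 273 with CK666 and 207, 143 and 160 with CytoD. CK666 raised it by 0.81 ± 0.13 on the log2 scale (adjusted p = 2.07e-06, edgeR's quasi-likelihood test, Benjamini-Hochberg), which is under the fold limit. CytoD did not pass the test (0.18 ± 0.14, adjusted p = 0.488). All 6 tested windows downstream of Adipoq were above 0 with CK666, with a median of 0.55. The window at +22.0 kb (chr16:23168344-23168893) held 23.1, 16 and 19.4 counts in controls, 18.5, 19.8 and 33.0 with CK666 and 7.54, 9.59 and 4.51 with CytoD. It was called only as a difference between the drugs (1.73 ± 0.47, adjusted p = 0.00698). The call was lost without CK666 replicate 2 or 3 or CytoD replicate 1 or 3, at 1.43 to 1.86 and adjusted p of 0.0105 to 0.0939. It was also lost under DESeq2 (adjusted p = 0.0147), total counts (0.0117) and with the replicate number as a block (0.0104).

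No Adipor2 window was called by edgeR with either drug at 24 h, where 4 of 15 had an unadjusted p under 0.05 with CK666 and 6 with CytoD (20.7% and 22.6% of all windows). Its median log2 fold change was -0.01 with CK666 and -0.09 with CytoD over 15 windows. Its most accessible distal window, in an intron at -4.4 kb (chr6:119392822-119393350), was at 289 ± 43, 303 ± 17 and 244 ± 12 counts (SD, n = 3) in control, CK666 and CytoD libraries. An intronic window at -7.5 kb (chr6:119395592-119396701) was lower by less than the fold limit, with 237, 234 and 250 counts in controls, 164, 149 and 164 with CK666 and 189, 174 and 180 with CytoD. The fold changes on the log2 scale were -0.60 ± 0.13 and -0.41 ± 0.13 (adjusted p = 0.000268 and 0.0222 by the same test).

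Lpl, the gene with the most windows, had called gains with both drugs. Those with CK666 were 2 of 5 distal windows upstream, and those with CytoD were 3 of 16 within the gene. Compared directly between the drugs, the only Lpl window called was that at -13.9 kb. The promoter and the windows next to it, at +1.8 and +4.2 kb, were called with neither.

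Upstream, the Lpl window at -13.9 kb (chr8:68866322-68866860, intergenic) held 5.13, 9.26 and 3.53 counts in controls, 37.0, 36.9 and 53.4 with CK666 and 7.54, 12 and 11.7 with CytoD. It was nearly closed in the controls and the CK666 libraries were separate from all others. The log2 fold change with CK666 was 2.78 ± 0.43 (adjusted p = 6.25e-07, edgeR's quasi-likelihood test, Benjamini-Hochberg), the largest of the 131 windows in this comparison, and it exceeded CytoD by 2.0 ± 0.40 (adjusted p = 0.000139). With CytoD it was 0.78 ± 0.50 (adjusted p = 0.372). The window at -15.3 kb (chr8:68864901-68865548) held 20.5, 13.5 and 13.2 counts in controls, 46.2, 35.2 and 40.8 with CK666 and 15.1, 28.8 and 26.2 with CytoD. CK666 exceeded control by 1.40 ± 0.34 on the log2 scale (adjusted p = 0.00267). This call was lost without control replicate 2 or 3 or CK666 replicate 1 or 3, at 1.27 to 1.37 and adjusted p of 0.014 to 0.0313.

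Within the Lpl gene, from the first intron to the last exon, 15 of 16 distal windows were above 0 with CytoD, with a median log2 fold change of 0.88, and 14 of 16 with CK666, with a median of 0.62. The called gains with CytoD were at +8.2 kb (chr8:68887576-68889754, coding exon), +22.1 kb (chr8:68901561-68903549, coding exon) and +27.1 kb (chr8:68907014-68908161, untranslated part of the last exon). At +8.2 kb the libraries held 28.2, 23.6 and 31.8 counts in controls, 77.7, 48.1 and 34.9 with CK666 and 69.1, 68.4 and 76.8 with CytoD. At +22.1 kb they held 26.9, 30.3 and 22.9, then 45.3, 55.9 and 53.4, and then 61.6, 81.6 and 60.5 in the same order. The log2 fold changes with CytoD were 1.36 ± 0.27, 1.33 ± 0.26 and 1.12 ± 0.25 (adjusted p = 9.68e-05, 0.000109 and 0.000689, edgeR's quasi-likelihood test, Benjamini-Hochberg). With CK666 they were 0.95 ± 0.27, 0.94 ± 0.26 and 0.76 ± 0.25 (adjusted p = 0.0117, 0.0103 and 0.0369), just short of a call. The log2 differences of CK666 over CytoD at these windows were -0.42 ± 0.24, -0.39 ± 0.24 and -0.36 ± 0.23 (adjusted p = 0.301, 0.329 and 0.355). The call at +27.1 kb was lost without control replicate 3, CytoD replicate 2 or CytoD replicate 3, at 0.85 to 1.0 and adjusted p of 0.0161 to 0.0359. These windows are long and sparse, at 12.8, 13.4 and 32.1 counts per kb in controls against 265 at the promoter.

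Downstream of Lpl, the most accessible distal window of the gene (chr8:68909453-68916786, 7334 bp, at +32.6 kb) held 271, 308 and 294 counts in controls, 328, 281 and 377 with CK666 and 589, 574 and 577 with CytoD. The CytoD libraries were nearly equal and far above the rest. On the log2 scale the change was 0.99 ± 0.10 with CytoD (adjusted p = 9.35e-13, edgeR's quasi-likelihood test, Benjamini-Hochberg), just under the fold limit, and 0.17 ± 0.10 with CK666 (adjusted p = 0.361). CytoD exceeded CK666 here (log2 difference of CK666 over CytoD -0.82 ± 0.10, adjusted p = 2.47e-10).

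**Figure D3:**
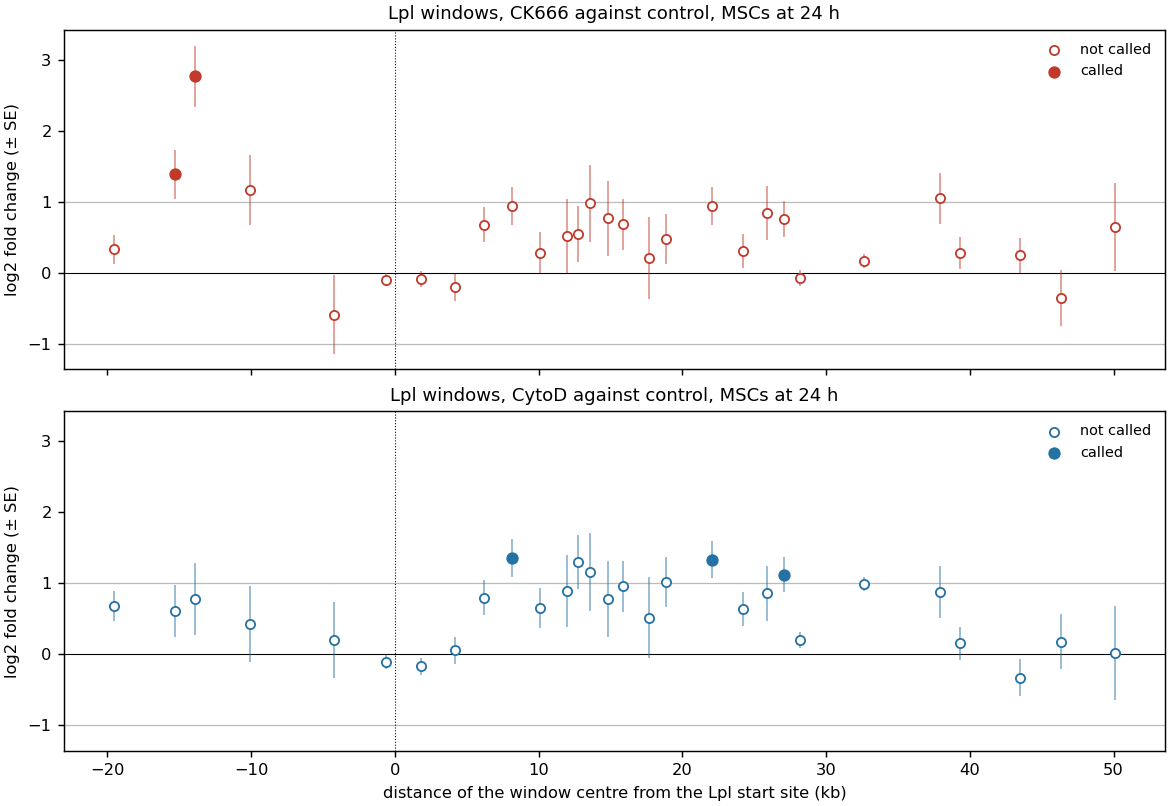
Log2 fold change ± SE (vertical axis) of each tested Lpl window at 24 h against the distance of its centre from the start site in kb (horizontal axis, dotted line at the start), for CK666 (upper panel) and CytoD (lower panel), where filled points are called and grey lines mark a 2-fold change. The filled points lie at -15.3 and -13.9 kb with CK666 and at +8.2, +22.1 and +27.1 kb with CytoD, and the points next to the start lie near 0.

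Of the other uptake genes, Cd36 had no called distal window at 24 h (5 of 13 had an unadjusted p under 0.05 in edgeR with each drug, against 20.7% and 22.6% of all windows). Its most accessible one, in an intron at +11.7 kb (chr5:17876571-17877608), was at 106 ± 1.7, 106 ± 17 and 140 ± 13 counts (SD, n = 3) in control, CK666 and CytoD libraries. Fabp4 lost accessibility with CytoD at -3.4 kb (chr3:10211698-10212303, intergenic), from 53.9, 79.1 and 59.1 counts in controls to 26.4, 31.2 and 28.0, while CK666 libraries held 54.6, 46.4 and 50.5. The log2 fold change with CytoD was -1.18 ± 0.26 (adjusted p = 0.000806, edgeR's quasi-likelihood test, Benjamini-Hochberg), and without control replicate 2 the call was lost, at -1.01 and an adjusted p of 0.0235. At its most accessible distal window, at -5.0 kb (chr3:10212999-10214166), Fabp4 held 215, 217 and 203 counts in controls, 290, 245 and 286 with CK666 and 229, 170 and 200 with CytoD. CK666 was above all controls, by 0.37 ± 0.12 on the log2 scale (adjusted p = 0.0334) and above CytoD by 0.45 ± 0.12 (adjusted p = 0.00581), both under the fold limit.

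Among the lipid droplet genes, Plin1 moved beyond its promoter as well. Its window at -1.9 kb (chr7:79734301-79735311, intergenic) held 42.3, 37.9 and 49.4 counts in controls, 75.8, 94.5 and 82.5 with CK666 and 70.4, 81.6 and 100 with CytoD, and all treated libraries were above all controls. The log2 fold changes of 0.96 ± 0.22 and 0.97 ± 0.22 (adjusted p = 0.000726 and 0.00092, edgeR's quasi-likelihood test, Benjamini-Hochberg) were just under the fold limit. Lipe gained accessibility with CytoD in an intron at -1.5 kb (chr7:25391601-25392405), which also lies in an intron of the non-coding gene 4732471J01Rik. This window held 20.5, 15.2 and 22.9 counts in controls, 49.0, 35.2 and 38.8 with CK666 and 27.6, 55.2 and 59.6 with CytoD, with log2 fold changes of 1.30 ± 0.32 with CytoD (adjusted p = 0.00228) and 1.07 ± 0.32 with CK666 (adjusted p = 0.0157). The CytoD call was lost without control replicate 2, CytoD replicate 2 or CytoD replicate 3, at 1.07 to 1.17 and adjusted p of 0.0227 to 0.0549. The most accessible distal windows of Lipe (+0.7 kb) and Cidec (-3.1 kb) were at 227 ± 36 and 177 ± 18 counts (SD, n = 3) in controls and were called with neither drug. Cidec had no call with either drug at 24 h, nor a window with an unadjusted p under 0.05 in edgeR.

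Compared directly at 24 h, CK666 was above CytoD in 4 of 131 windows and below it in 0 (29 had an unadjusted p under 0.05 in edgeR, as had 23.7% of all windows), where 2.14% of all windows were higher and 1.14% lower. These were the Lep windows at +22.7 and +24.1 kb, the Lpl window at -13.9 kb and the Adipoq window at +22.0 kb. None of the 13 promoter windows was called in this comparison (0.689% of all promoter windows), and by an unadjusted p under 0.05 edgeR had 4 of them, against 31.7% of all promoter windows. The shape of the difference was not the same at each of the 4 windows. At the Lep window at +22.7 kb and at Lpl, CK666 was above control and CytoD was near it. At the Lep window at +24.1 kb and the Adipoq window, CytoD was below control and CK666 was near it.

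At 4 h the Adipoq promoter was more accessible with CK666 in MSCs. In this comparison 3 of 118 windows tested were called higher and 2 lower, where 0.59% of all windows were called higher and 0.427% lower. The gains belonged to Adipoq and Plin1 and the losses to Adipor2. The median log2 fold change of the 118 windows was 0.18, against 0.00 over all windows, and 73 were above 0. The normalised counts at 4 h are scaled over all 12 libraries of that table and are not comparable with those at 24 h.

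The Adipoq promoter window (chr16:23146100-23146631) held 6.03, 10.9 and 10.01 normalised counts in controls and 33.1, 45.1 and 34.7 with CK666 at 4 h. Each CK666 library was at least 3 times as high as any control. This was a log2 fold change of 2.05 ± 0.36 (adjusted p = 1.88e-05, edgeR's quasi-likelihood test, Benjamini-Hochberg), and it was the only called window of 11 promoter windows (0.263% of all promoter windows). It stayed called when any 1 library was left out, whereas DESeq2, whose own filter on low mean counts leaves such windows out, gave it no adjusted p. The overlapping 24 h window was the one that was called with CytoD but not with CK666. In the first intron of Adipoq at +2.5 kb (chr16:23148838-23149499) the libraries held 39.2, 21.8 and 29.0 counts in controls and 81.4, 38.5 and 66.7 with CK666. This window was called at 1.04 ± 0.26 (adjusted p = 0.00432) although CK666 replicate 2 lay below control replicate 1, and the call was lost without control replicate 2 or 3 or CK666 replicate 1 or 3, at 0.80 to 1.02 and adjusted p of 0.0206 to 0.102. It was also lost under DESeq2 (adjusted p = 0.0235) and in the fit of all 12 libraries (0.0422). The most accessible distal window of Adipoq at 4 h, at +20.7 kb, was at 198 ± 10 and 248 ± 42 counts (SD, n = 3) and was not called.

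The Plin1 window at -1.9 kb (chr7:79734529-79735125), which overlaps the one that rose by just under 2-fold with both drugs at 24 h, held 36.2, 14.9 and 15.0 counts in controls and 74.7, 78.6 and 60.5 with CK666 at 4 h. All CK666 libraries were above all controls. The log2 fold change was 1.69 ± 0.27 (adjusted p = 1.57e-06, edgeR's quasi-likelihood test, Benjamini-Hochberg), and the call held when any 1 library was left out. The Plin1 promoter window b, called at 24 h, held 11.1, 13.9 and 16 counts in controls and 23.7, 28.4 and 17.8 with CK666 at 4 h, a log2 fold change of 0.76 ± 0.38 that did not pass the test (adjusted p = 0.252). The Cd36 promoter window a was at 0.76 ± 0.36 (adjusted p = 0.213), with groups that overlap. The Cidec promoter window b held 124, 83.2 and 82.1 counts in controls and 155, 155 and 121 with CK666 (log2 fold change 0.57 ± 0.16, adjusted p = 0.0124). The Lpl and Fabp4 promoters were at 0.10 ± 0.07 and 0.16 ± 0.10 (adjusted p = 0.465 and 0.433).

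Adipor2 was the gene that lost accessibility with CK666 at 4 h. Its window at -14.4 kb (chr6:119431675-119432436, intergenic) held 84.4, 82.3 and 83.1 counts in controls and 33.1, 25.1 and 31.1 with CK666. The controls were nearly equal and all CK666 libraries were below them, with a log2 fold change of -1.49 ± 0.23 (adjusted p = 7.48e-07, edgeR's quasi-likelihood test, Benjamini-Hochberg), a call that held when any 1 library was left out. The 24 h window at this place held 43.6, 55.6 and 52.1 counts in controls, 32.4, 27.5 and 34 with CK666 and 20.1, 21.6 and 43.3 with CytoD. Both drugs were below all controls there, but neither passed the test (-0.70 ± 0.29 and -0.80 ± 0.29, adjusted p = 0.12 and 0.0709). In an intron at +12 kb (chr6:119376400-119376964) Adipor2 held 30.1, 40.6 and 31.0 counts in controls and 16.1, 14.2 and 6.23 with CK666. On the log2 scale the change was -1.48 ± 0.35 (adjusted p = 0.00254), DESeq2 gave no adjusted p for it, and the call was lost without control replicate 2 or CK666 replicate 3, at -1.33 and -1.18 and adjusted p of 0.0361 and 0.0424. The Adipor2 promoter was lower by less than the fold limit, at 561 ± 23 counts (SD, n = 3) in controls and 466 ± 17 with CK666 (log2 fold change -0.27 ± 0.08, adjusted p = 0.0146).

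Lep and Lpl had no window called in MSCs at 4 h. Of the 24 Lep windows 4 had an unadjusted p under 0.05 in edgeR, against 19.1% of all windows, 8 were above 0 and the median log2 fold change was -0.12. The Lep window at +22.9 kb (chr6:29087883-29088808), which overlaps the one called at 24 h, held 336, 292 and 233 counts in controls and 458, 470 and 419 with CK666, so that the groups did not overlap. This was a log2 fold change of 0.64 ± 0.10 (adjusted p = 4.24e-07, edgeR's quasi-likelihood test, Benjamini-Hochberg), under the fold limit. The most accessible distal window of Lep at 4 h, at -36.9 kb in an exon of the non-coding gene Gm3294, was at 521 ± 21 counts (SD, n = 3) in controls and 413 ± 61 with CK666 (-0.34 ± 0.09, adjusted p = 0.00498). For Lpl 0 of 21 tested windows were called, and 10 of the 21 had an unadjusted p under 0.05 in edgeR, against 19.1% of all windows. Of its 20 distal windows 17 were above 0, and the 8 downstream windows of Lpl, all above 0, had a median log2 fold change of 0.70. Its most accessible distal window, at +1.9 kb, was at 470 ± 14 and 430 ± 34 counts.

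**Figure D4:**
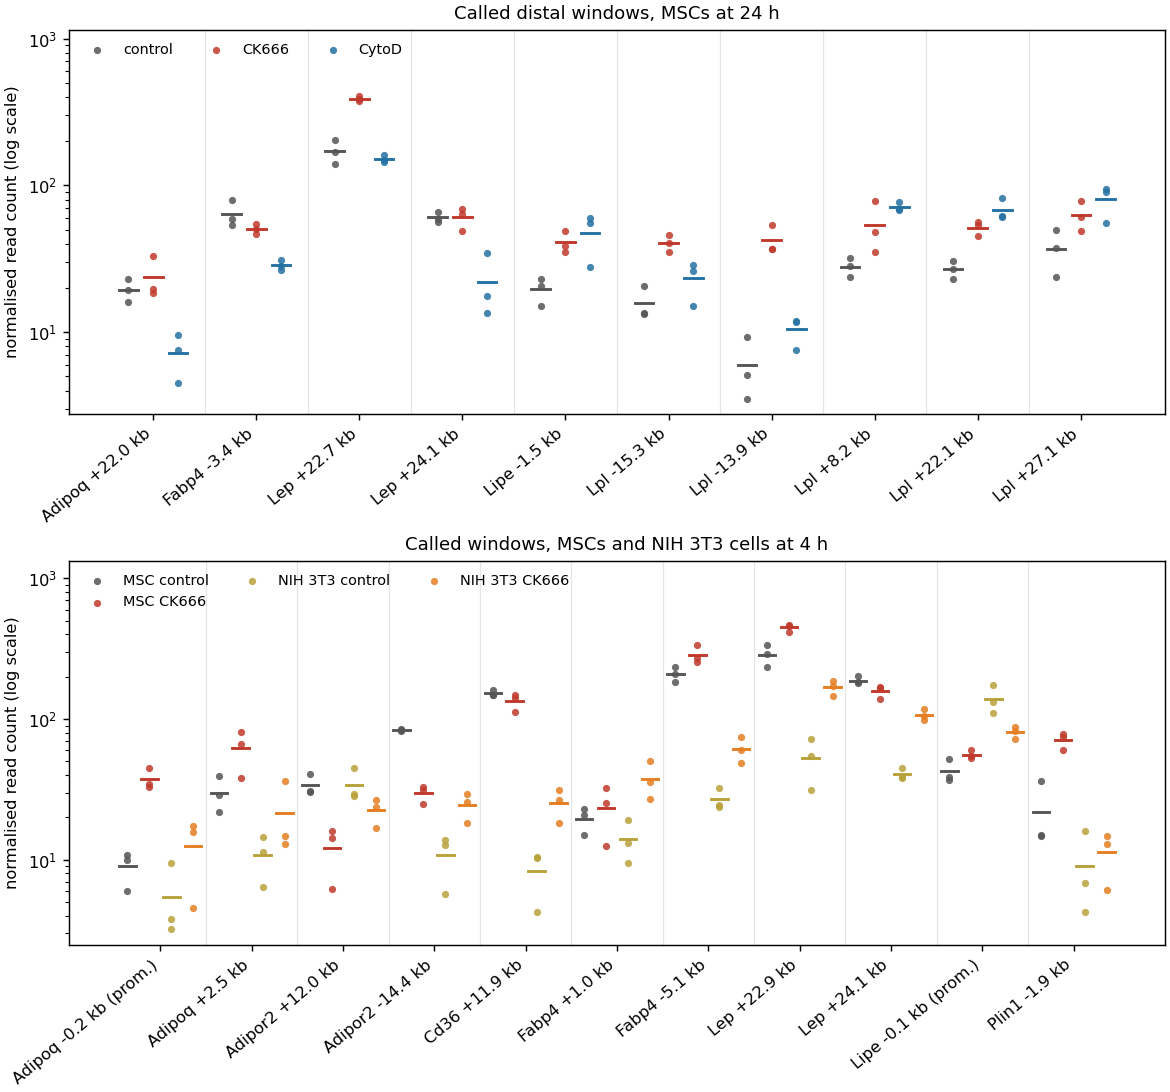
Normalised read counts (log axis) of each library at the distal windows called at 24 h (upper panel, MSCs) and at all windows called with CK666 or for the difference between cell types at 4 h (lower panel, MSCs and NIH 3T3 cells), with a bar at the mean of 3 libraries and windows named by gene and by the distance of their centre from the start site. At Lep +22.7 kb the CK666 libraries lie at 373 to 408 counts and all others at or under 205, and at Adipor2 -14.4 kb the MSC libraries fall with CK666 whereas the NIH 3T3 libraries lie lower in controls and are not lower with CK666.

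In NIH 3T3 cells CK666 raised 4 of 97 tested windows and lowered 0 at 4 h (31 had an unadjusted p under 0.05 in edgeR, as had 26.6% of all windows), where 1.87% of all windows were called higher and 1.67% lower. The median log2 fold change of the 97 windows was 0.28, against 0.04 over all windows, and 66 were above 0. There, 0 of 8 promoter windows were called (1.5% of all promoter windows, with 3 of the 8 at an unadjusted p under 0.05 in edgeR, against 32.1% of all). The calls lay at Lep and Fabp4. The Lep window at +22.9 kb held 54.5, 72.2 and 31.3 counts in controls and 172, 186 and 147 with CK666, a log2 fold change of 1.68 ± 0.20 (adjusted p = 1.55e-09, edgeR's quasi-likelihood test, Benjamini-Hochberg). The Lep window at +24.1 kb (chr6:29089264-29089861) held 38.5, 44.7 and 38.8 counts in controls and 105, 117 and 99.1 with CK666, a log2 fold change of 1.41 ± 0.21 (adjusted p = 9.52e-07). At both windows every treated library was above every control, and both calls held when any 1 library was left out.

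The Fabp4 window at -5.1 kb (chr3:10213260-10214139) held 24.6, 32.7 and 23.7 counts in NIH 3T3 controls and 60.8, 48.9 and 74.3 with CK666 (log2 fold change 1.20 ± 0.27, adjusted p = 0.00118, edgeR's quasi-likelihood test, Benjamini-Hochberg). In MSCs, where it was the most accessible distal window of the gene, it held 211, 234 and 184 counts in controls and 337, 271 and 256 with CK666 (0.45 ± 0.11, adjusted p = 0.00397). The Fabp4 window at +1.0 kb (chr3:10207158-10208040) held 19.2, 9.45 and 13.3 counts in NIH 3T3 controls and 50.1, 27.2 and 35.7 with CK666 (1.44 ± 0.38, adjusted p = 0.00527). The call at -5.1 kb was lost without control replicate 1 or 3 or CK666 replicate 3, at 1.01 to 1.11 and adjusted p of 0.0146 to 0.0357. That at +1.0 kb was lost without control replicate 2 or 3 or CK666 replicate 1 or 3, at 1.20 to 1.46 and adjusted p of 0.0208 to 0.0496. Neither was called by DESeq2. The Adipoq promoter, with 3.21, 9.45 and 3.79 counts in NIH 3T3 controls and 4.56, 17.4 and 15.9 with CK666, fell under the filter on low counts in these cells.

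The effect of CK666 at 4 h differed between the 2 cell types in 5 of 124 windows, with 1 where the effect in MSCs was the higher and 4 where it was the lower (0.905% and 0.498% of all windows). At the Adipor2 window at -14.4 kb the effect in MSCs minus that in NIH 3T3 cells was -2.68 ± 0.45 on the log2 scale (adjusted p = 2.5e-05, edgeR's quasi-likelihood test, Benjamini-Hochberg). NIH 3T3 cells held 12.8, 13.8 and 5.69 counts there in controls and 18.2, 29.4 and 25.8 with CK666, a rise that did not pass the test by itself (1.21 ± 0.45, adjusted p = 0.0629). At the Lep windows at +24.1 and +22.9 kb the differences were -1.64 ± 0.25 (adjusted p = 2.61e-06) and -1.01 ± 0.23 (adjusted p = 0.00243). In MSCs the window at +24.1 kb held 201, 180 and 183 counts in controls and 167, 140 and 169 with CK666, so that it was lower in all treated libraries, by an amount that did not pass the test (-0.25 ± 0.13, adjusted p = 0.264). The difference at +22.9 kb was lost without MSC control replicate 1 or 2, MSC CK666 replicate 3, NIH 3T3 control replicate 3 or NIH 3T3 CK666 replicate 1 or 2, at -1.0 to -0.74. It was also lost under DESeq2, RLE size factors, with the GC trend removed and with no filter on low counts, at -0.97 to -0.96, under the fold limit.

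A Cd36 intron window at +11.9 kb (chr5:17876503-17877105) held 149, 161 and 149 counts in MSC controls and 142, 150 and 112 with CK666, against 4.28, 10.3 and 10.4 in NIH 3T3 controls and 18.2, 31.5 and 26.8 with CK666. The difference of the effects was -1.78 ± 0.39 (adjusted p = 0.00191, edgeR's quasi-likelihood test, Benjamini-Hochberg), lost without NIH 3T3 control replicate 1 or NIH 3T3 CK666 replicate 2 or 3, at -1.72 to -1.50. The Lipe promoter (chr7:25389911-25390506) moved the other way. It held 52.3, 38.6 and 37.0 counts in MSC controls and 53.0, 60.2 and 54.3 with CK666, against 175, 111 and 132 in NIH 3T3 controls and 88.1, 71.8 and 82.2 with CK666, a difference of 1.18 ± 0.30 (adjusted p = 0.00911). This call was lost in 9 of the 12 fits that leave out 1 library, at 0.98 to 1.24 and adjusted p of 0.0118 to 0.0644. These were the fits without MSC control replicate 2 or 3, any MSC CK666 library, NIH 3T3 control replicate 1 or 3 or NIH 3T3 CK666 replicate 2 or 3. It was also lost under total counts (1.06, adjusted p = 0.0181) and with the replicate number as a block (1.16, adjusted p = 0.0163). Total counts moved the median of all windows by -0.10 for this comparison, by 0.11 for CK666 in NIH 3T3 cells and by -0.23 between untreated cell types. They also moved the share of gains among all calls from 64.5% to 46.2%, from 52.8% to 69.5% and from 53.1% to 40.8%, and that of CK666 against CytoD from 65.3% to 53.8%.

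Without treatment, more windows of the 9 genes were called higher in MSCs than in NIH 3T3 cells. In MSCs 45 of 124 windows were called higher and 7 lower, where 18.3% of all windows were higher and 16.2% lower, and the median log2 ratio was 0.81 against -0.02 over all windows (36 and 9 under total counts). Of the 124, 27 windows did not pass the filter on low counts within NIH 3T3 cells. They entered through the MSC libraries, where they are high, and made up 12 of the 45 calls. Among the 91 windows that passed within each cell type, a choice made after seeing the data, 33 were called higher and 5 lower, against 18% and 13.5% of all such windows. Their median log2 ratio was 0.56, against 0.09 over all such windows. The promoters of Cidec (window b, 96.3 ± 24 against 9.63 ± 1.8 counts, SD, n = 3), Lpl (764 ± 22 against 200 ± 20), Fabp4 (261 ± 13 against 72.5 ± 6.9) and Cd36 (window b, 39.3 ± 16 against 18.5 ± 2.5) were higher in MSCs. The ratios were 3.32 ± 0.30, 1.93 ± 0.12, 1.85 ± 0.15 and 1.09 ± 0.33 on the log2 scale. The Cidec window is among the 27 that did not pass the filter within NIH 3T3 cells and entered through the MSC libraries. The Cd36 difference was lost without MSC control replicate 1 or 2 or NIH 3T3 control replicate 2 or 3, at 0.83 to 1.03, and under total counts (0.85). It was also lost under DESeq2 (adjusted p = 0.0108), with a mean of at least 20 counts (0.86) and with the replicate number as a block (adjusted p = 0.0439). The Lipe promoter was higher in NIH 3T3 cells (log2 ratio of MSCs over NIH 3T3 -1.70 ± 0.21), and the Adipoq and Adipor2 promoters were not called (0.66 ± 0.54 and 0.10 ± 0.11). Promoter windows in general were higher in MSCs. Of all 16511 tested, 2924 were called higher and 1040 lower, 70.4% were above 0 and the median log2 ratio was 0.32. Among the 11 promoter windows of the 9 genes, 4 were called higher and 1 lower, with a median of 0.66. Distal calls were most frequent at Lpl with 11 higher and 1 lower, Cd36 with 9 higher, Lep with 7 higher and 2 lower, and Adipoq with 5 higher, at log2 ratios of up to 5.20. Within NIH 3T3 cells 13 of 21 distal windows of Lpl, 9 of 16 of Cd36, 7 of 13 of Adipoq and 26 of 26 of Lep passed the filter on low counts. The remaining windows of Lpl, Cd36 and Adipoq entered through the MSC libraries, where they are high. The distal calls of each gene were not split by this filter. The cell types also differ in Thy1, a member of the MSC and fibroblast list, whose promoter was at 1.276 counts per kb in MSC controls and 132.6 in NIH 3T3 controls. Lepr, of the same list, was at 9.866 and 28.87, and Cxcl12 at 205.6 and 57.31. Of the promoter windows of this list, 1 was called higher and 3 lower in untreated MSCs than in untreated NIH 3T3 cells. Endothelial markers, with a promoter window in 4 of 6 genes at 4 h, were at 70.06 to 74.35 counts per kb in MSC controls and 37.54 to 47.96 in NIH 3T3 controls. With CK666 they were at 77.15 to 78.24 and 43.75 to 62.5, and none of their windows was called with it. Between untreated cell types 2 of their windows were called higher in MSCs and 0 lower, and their part in the result was not tested.

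**Figure D5:**
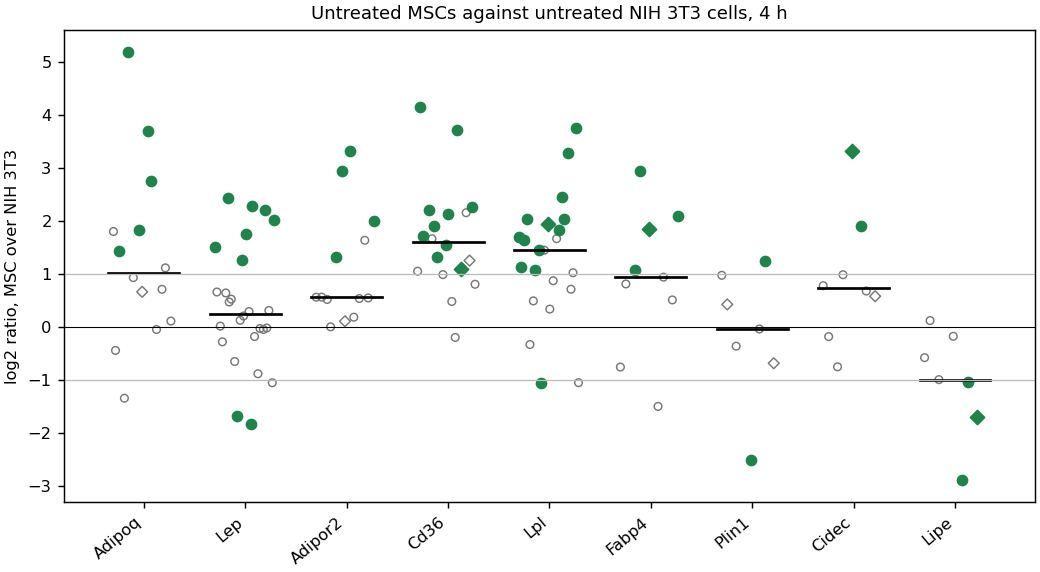
Log2 ratio of untreated MSCs over untreated NIH 3T3 cells at 4 h (vertical axis) for each tested window of the 9 genes (horizontal axis), where diamonds are promoter windows, circles are distal windows, filled green symbols are called, black bars are the median of a gene and grey lines mark a 2-fold difference. Most filled symbols lie above 0, and those of Lipe lie below 0.

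When the windows of a gene were summed, only the Adipoq promoter passed both limits in any comparison of treated with control cells. Its promoter sum rose by 2.09 ± 0.37 on the log2 scale with CK666 at 4 h (adjusted p = 7.36e-05, edgeR's quasi-likelihood test, Benjamini-Hochberg) and by 1.17 ± 0.27 with CytoD at 24 h (adjusted p = 0.00125). Adipoq has only 1 promoter window at each time. These sums therefore hold the same counts as the promoter window already called and are no separate result. DESeq2 gave the sum at 4 h no adjusted p. Of all genes, 0.134% were called on promoter sums with CK666 at 4 h and 0.323% with CytoD at 24 h, and 0.178% and 0.753% on distal sums. With CK666 at 24 h no sum of the 9 genes passed both limits (0.453% of all genes on promoter sums, 0.956% on distal sums), and neither did any in NIH 3T3 cells (1.28% and 1.75%). At an adjusted p under 0.05 with no fold limit, the same test had 7 sums with CK666 at 24 h and 6 in NIH 3T3 cells, where 17.4% and 36% of the sums of all genes passed. DESeq2 gave 0 calls in both comparisons. The CytoD call was lost without control replicate 1, control replicate 3 or CytoD replicate 2.

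Smaller shifts of the sums were well resolved, since they rest on more reads. Each sum also holds the counts of the windows named above for its gene, so it is not separate from them. The distal sum of Adipoq was higher with CK666 by 0.37 ± 0.08 at 24 h and 0.41 ± 0.07 at 4 h (adjusted p = 0.000418 and 4.23e-06, edgeR's quasi-likelihood test, Benjamini-Hochberg). That of Lep was higher by 0.30 ± 0.07 at 24 h (adjusted p = 0.000461) and at -0.08 ± 0.05 at 4 h (adjusted p = 0.31). Most of the Lep rise at 24 h, from a mean of 1041 to 1281 normalised counts, lay in the window at +22.7 kb already called. The distal sum of Adipor2 was lower by 0.22 on the log2 scale at 24 h and by 0.25 at 4 h (adjusted p = 0.0252 and 0.00149). The promoter sum of Plin1 was higher at 24 h with CK666 (0.70 ± 0.18, adjusted p = 0.00424) and with CytoD (0.63 ± 0.19, adjusted p = 0.0155). The distal sum of Lpl ranged from 1435 to 1559 normalised counts in controls, from 1614 to 1836 with CK666 and from 2158 to 2194 with CytoD at 24 h, so that the 3 groups did not overlap. CytoD exceeded control by 0.54 ± 0.05 (adjusted p = 8.25e-11) and CK666 exceeded it by 0.22 ± 0.05 (adjusted p = 0.00153), and CK666 was below CytoD by a log2 difference of -0.32 ± 0.05 (adjusted p = 6.67e-06).

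A list of 42 other genes of lipid storage, lipolysis, fatty acid uptake and synthesis and adipokines had 491 windows at 24 h and 534 at 4 h. With CK666 at 24 h, 13 of 488 tested windows were called higher, at 10 genes, and 3 lower. These are 2.66% and 0.615% of them, against 1.88% and 1.06% of all windows. The gains with the highest fold change lay at Lpin1, which makes diacylglycerol for triglyceride synthesis, at +2.1 kb (26.9 against 135.1 mean counts, log2 fold change 2.32 ± 0.23), and at Plin2, a droplet coat protein of many cell types, at -2.9 kb (6.7 against 32.3 counts, 2.28 ± 0.46). Elovl6, which elongates fatty acids, was higher at +21.4 kb (66.8 against 246.8 counts, 1.89 ± 0.15), and the Plin2 promoter was lower (171.7 against 85.6 counts, -1.02 ± 0.16). G0s2, an inhibitor of lipolysis, was higher at +2.1 kb (1.37 ± 0.18) and -1.6 kb (1.71 ± 0.23). With CytoD there were 13 gains and 8 losses (2.66% and 1.64%, against 0.98% and 1.4% of all windows). CK666 was above CytoD in 15 windows and below it in 5 (3.07% and 1.02%, against 2.14% and 1.14%). With CK666 at 4 h, 10 of 451 windows were higher in MSCs, at Angptl4, an inhibitor of lipoprotein lipase, and at Plin2, Plin4, G0s2, Scd1, Aqp7 and Adipor1. Another 1 was lower, at Adrb3, the beta-3 adrenergic receptor. The shares were 2.22% and 0.222%, against 0.59% and 0.427% of all windows. In NIH 3T3 cells 12 of 487 were higher and 4 lower (2.46% and 0.821%, against 1.87% and 1.67%). The effect in MSCs was higher in 9 of 532 windows and lower in 2 (1.69% and 0.376%, against 0.905% and 0.498%). The median log2 fold change of this list was 0.12 with CK666 at 24 h, 0.08 with CytoD and 0.11 with CK666 at 4 h, against 0.25, 0.20 and 0.18 for the 9 genes.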

How the data were processed

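ATAC-seq reads of Omni-ATAC libraries were processed by the authors with PEPATAC, which aligns with bowtie2 and calls peaks with MACS2. The authors deposited, for each time point, a table of raw read counts in the union of the peaks of its libraries on mm10, a build the submitters' processing notes also name, and versions are not stated there or in the methods. Samples were grouped by their labels, with 24 h and 4 h libraries kept in separate tables, 9 and 12 libraries were used, and 9 siRNA columns were not used here.

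Windows were assigned to the nearest protein-coding start site within 50 kb (GENCODE vM21), and the fits ran over all windows that passed filterByExpr. Counts were scaled by TMM and tested with edgeR 4.0.16 (glmQLFit and glmQLFTest, R 4.3.3, limma 3.58.1), with Benjamini-Hochberg adjustment over all windows tested and limits of an adjusted p of 0.01 and a 2-fold change. Separate fits held the 9 libraries at 24 h, the 6 libraries of MSCs at 4 h and the 6 of NIH 3T3 cells, and a further fit of all 12 libraries at 4 h gave the interaction. A normalised read count is a count divided by its library's TMM-scaled size, relative to the geometric mean size of the libraries of its table. The SE is the absolute log2 fold change over the square root of the F statistic. The windows named are the promoter windows, those called in a comparison and the most accessible distal window of each gene, and distal windows called only between untreated cell types are given as counts. The members and lists were chosen with earlier results of these data known. Alternatives were DESeq2 1.42.0, other scalings, filters, limits, distances and fits, a GC trend, a replicate block and leaving out each library. Tested on simulated counts with 200 windows changed by a log2 fold change of 2, the steps recovered 145 at 24 h (300323 windows), 144 in MSCs at 4 h (306819 windows) and 134 in NIH 3T3 cells (331963 windows). The changed windows were drawn from those with a mean of at least 20 counts, and the spread was assumed. The recovery therefore does not describe windows with fewer counts. Sequences came from RefSeq GRCm38.p6 and were read with pysam 0.24.0.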

Additional observations from a re-analysis of the deposited data

Results flagged for a closer look

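The effect of CK666 at 4 h differed between MSCs and NIH 3T3 cells at 5 windows of the 9 genes by the interaction test of edgeR over all 12 libraries. The effect in MSCs minus that in NIH 3T3 cells, on the log2 scale, was -2.68 at the Adipor2 window at -14.4 kb, where MSCs fell and NIH 3T3 cells had a higher mean that missed the limits. It was -1.78 at the Cd36 intron window at +11.9 kb, -1.64 at the Lep window at +24.1 kb and -1.01 at the Lep window at +22.9 kb. At the last of these CK666 libraries were above controls in both cell types, and the difference missed the fold limit under DESeq2, RLE size factors, the GC correction and no filter on low counts, at -0.97 to -0.96. It was 1.18 at the Lipe promoter, where NIH 3T3 cells were lower with CK666, and missed the limits under total counts and with the replicate number as a block. The Adipor2, Cd36 and Lep windows were also less accessible in untreated NIH 3T3 cells than in untreated MSCs, and the part of this starting level in the differences was not tested.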

How the results depend on the processing

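No value named in the report changed its direction while called under any alternative. With no fold limit and an adjusted p under 0.05 the windows called were 17 for CK666 and 18 for CytoD of 131 at 24 h, 10 for CK666 against CytoD, 19 of 118 for CK666 in MSCs and 14 of 97 in NIH 3T3 cells at 4 h, and 8 of 124 for the difference between cell types. Of all 300323 windows tested at 24 h, 14709 were higher and 13826 lower with CK666, and 11051 and 18635 with CytoD. For CK666 against CytoD 22032 were higher and 12719 lower. At 4 h these were 10935 and 11687 of 306819 in MSCs and 19556 and 24104 of 331963 in NIH 3T3 cells. For the difference between cell types they were 10719 and 6503 of 368794. Gene sums then gave 7, 5, 9 and 6 calls for CK666 and CytoD at 24 h and CK666 in MSCs and NIH 3T3 cells at 4 h. Of the sums of all genes, 17.4% passed these limits with CK666 at 24 h and 36% in NIH 3T3 cells. No such share is given for CytoD at 24 h or for CK666 in MSCs at 4 h. Their counts of gene sums are therefore not read as a result about the 9 genes. Within 5 kb of a start site the windows called were 2, 4, 0, 3, 2 and 1 in the order of the windows above, and 21 between untreated cell types. The share of all windows within this distance was not counted. DESeq2 called 2 windows in MSCs at 4 h (2 of the 5 had no adjusted p), 2 in NIH 3T3 cells, and 0 gene sums in MSCs at 4 h (its 1 call had no adjusted p). The fit of all 12 libraries called 7 windows in NIH 3T3 cells. Leaving out 1 library gave 4 to 5 windows for CK666 and 4 to 9 for CytoD at 24 h (4 without CytoD replicate 2), 3 to 4 for CK666 against CytoD, 4 to 6 in MSCs at 4 h, 2 to 5 in NIH 3T3 cells (2 without CK666 replicate 3), 2 to 5 for the difference between cell types (2 without NIH 3T3 CK666 replicate 2) and 42 to 54 between untreated cell types, and 0 to 1 gene sums for CytoD. Of 36 calls at named windows, 33 held under total counts, 35 under RLE size factors, 35 with the GC trend removed, 35 without the filter and 28 of 34 under DESeq2. The cause of the other changes was not tested.

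Same-numbered libraries did not deviate together (correlations of -0.088 to 0.032), and 4 of 9, 3 of 12, 3 of 6 and 0 of 6 libraries correlated best with their own number. No pairing by number was therefore seen, but such correlations cannot show that same-numbered libraries were prepared apart. With the replicate number as a block 5, 8, 3, 5, 4, 4 and 40 windows were called in the order of the windows above, the last between untreated cell types, and 33 of 36 calls held. Between untreated cell types, 38 windows were called among those that pass the filter on low counts within each cell type, an alternative chosen after seeing the data.

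Windows with few counts are limited by depth, and a window that missed the limits is not shown to be unaltered.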
